A study of Mus musculus with 9 samples.

Results

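The guanylate-binding proteins and immunity-related GTPases described here are the genes Gbp2, Gbp3, Gbp4, Gbp5, Gbp6, Gbp7, Gbp8, Gbp9, Igtp and Irgm1. They were taken from the raw count table by symbol, and the 10 symbols matched 11 of its 28111 rows, since Gbp6 names 2 rows. The genes were chosen with their values by genotype and by mouse group already known, so these values are given as a description, without a test. The RNA came from regulatory T cells of C57BL/6J mice, which the series title calls induced: CD4 T cells driven to express the transcription factor Foxp3. There were 4 libraries from mice carrying a Glut1 transgene (Glut1Tg), of which replicate 1 belonged to mouse group 2 and replicates 2, 3 and 4 to mouse group 1. There were 5 libraries from wild-type controls (WT), of which replicates 2, 4 and 5 belonged to mouse group 2 and replicates 1 and 3 to mouse group 1. The labels name neither the meaning of the mouse groups, nor the promoter of the transgene, nor the culture conditions, nor any pooling of animals. Separate animals or cultures are not stated for the libraries, so the p-values below reflect the spread among these 9 libraries, which may be technical.

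These proteins are large GTPases that cells make in quantity after interferon-gamma. The receptor signals through the kinases Jak1 and Jak2, and transcription is driven through gamma-activated sites (GAS) and interferon-stimulated response elements (ISRE). The proteins assemble on the membranes of vacuoles that hold parasites or bacteria, or on bacteria in the cytosol, with help from the autophagy conjugation machinery, and several carry a lipid anchor at the C terminus. In T cells Irgm1 is known to protect cells exposed to interferon-gamma from death.

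Counts per library summed to between 20881035 and 31196428 in Glut1Tg and between 21679613 and 25390340 in WT. Levels are given as CPM, the counts of a gene scaled to a common library total after TMM scaling. Slc2a1, which encodes Glut1, checked the genotype labels: it stood at 260.2 to 496 CPM in Glut1Tg and 29.7 to 58.7 CPM in WT (log2 fold change 2.92, SE 0.19; edgeR adjusted p = 0.000903). Foxp3 stood at 621 to 822 CPM in Glut1Tg and 814 to 1164 CPM in WT. Several libraries stood apart from the rest. Summed over 6 proliferation genes, Glut1Tg replicate 1 had 4743 CPM and WT replicate 2 had 4668 CPM, against 868 to 2022 CPM in the other 7 libraries. Glut1Tg replicate 3 carried more transcripts of other blood cells. Its 12 myeloid markers summed to 848.7 CPM, against 205 to 398.5 CPM in the other Glut1Tg libraries and 242.8 to 437.3 CPM in WT. Of the 12, 11 were highest there. The exception, Ctss, held a large part of each sum, at 376.4 CPM there and 200.4 to 414.9 CPM in the other libraries. The 9 mast cell and basophil markers of Glut1Tg replicate 3 summed to 2462 CPM, against at most 839 CPM in any other library. Of these 9, 8 were highest there. Its 8 erythroid and platelet markers summed to 1036 CPM, against at most 284.5 CPM. No marker of these lists was at 0 in every library. In such bulk samples, fewer cells of a type and less RNA per cell cannot be told apart.

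RefSeq promoters of build GRCm38.p6 were at hand for 6 of the 10 symbols, with 7 gene starts between them. They are shown because the factors that answer interferon are known to act at the starts of these genes. Each window holds the 80 bases before a start, in lower case, and the first 20 transcribed bases, in capitals, and runs 5′ to 3′ along the gene's own strand. Gbp3 has 2 annotated starts, of which the upstream one is shown.
Igtp: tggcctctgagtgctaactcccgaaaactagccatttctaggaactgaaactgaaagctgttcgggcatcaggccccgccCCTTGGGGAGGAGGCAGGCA
Irgm1: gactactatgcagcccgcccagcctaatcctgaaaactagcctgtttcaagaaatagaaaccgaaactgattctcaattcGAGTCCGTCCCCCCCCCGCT
Gbp2: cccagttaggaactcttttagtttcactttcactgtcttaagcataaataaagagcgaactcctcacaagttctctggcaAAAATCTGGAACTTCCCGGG
Gbp3: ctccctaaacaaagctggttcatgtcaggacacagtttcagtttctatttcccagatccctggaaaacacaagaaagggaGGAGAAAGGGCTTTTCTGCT
Gbp5: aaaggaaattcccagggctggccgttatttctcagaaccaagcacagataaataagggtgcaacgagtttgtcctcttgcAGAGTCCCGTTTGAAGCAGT
Gbp7: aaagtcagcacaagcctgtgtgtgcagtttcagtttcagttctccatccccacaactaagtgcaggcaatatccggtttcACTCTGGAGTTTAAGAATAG

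The windows lie at chr11:58199476-58199575 on the plus strand (Igtp), chr11:48871401-48871500 on the minus strand (Irgm1), and, on the plus strand, chr3:142620583-142620682 (Gbp2), chr3:142559964-142560063 (Gbp3), chr3:142496854-142496953 (Gbp5) and chr3:142530256-142530355 (Gbp7). Gbp4, Gbp6, Gbp8 and Gbp9 were not matched. No search for binding sites was made in these windows, and the counts used here do not measure binding.

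The genes lie in clusters, given here in mm10 (GRCm38) coordinates of the GENCODE M21 annotation. Gbp5 (ENSMUSG00000105504), Gbp7 (ENSMUSG00000040253), Gbp3 (ENSMUSG00000028268) and Gbp2 (ENSMUSG00000028270) follow each other on the plus strand of chromosome 3 between 142493978 and 142638008. Gbp8 (ENSMUSG00000034438), Gbp9 (ENSMUSG00000029298), Gbp4 (ENSMUSG00000079363) and both Gbp6 rows lie on the minus strand of chromosome 5 between 105014150 and 105293698. Irgm1 (ENSMUSG00000046879) lies on the minus strand of chromosome 11 from 48861968 to 48871683, and Igtp (ENSMUSG00000078853) on its plus strand from 58199556 to 58207591. Of the Gbp6 rows, ENSMUSG00000104713 is the gene annotated as Gbp6 and is called Gbp6 here. The other, ENSMUSG00000079362, is named Gm43302 in GENCODE M21. Its transcript joins 10 exons of Gbp6 to a last exon that overlaps Gbp10, a further guanylate-binding gene, and it is called the joined Gbp6 model here.

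Reads of such related genes can be split or lost in counting. Of the 75-base stretches in the transcripts of Gbp6, 67.3% also occur in another of these GTPase genes, most of them in the joined model or in Gbp10. For the joined model this share was 99.4%. It was 8.0% for Gbp8, 7.8% for Igtp and at most 3.6% for Gbp2, Gbp3, Gbp4, Gbp5, Gbp7, Gbp9 and Irgm1. Values of Gbp6 are therefore less certain than those of the other genes. Exon bases on the same strand are also shared: Gbp4, Gbp8 and Gbp9 have 60 or 61 in common at their first exon, and Igtp shares 162 of its 2022 with Irgm2. Whether the counting used strand is not stated in the labels.

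Per kilobase of exon, averaged over the 9 libraries, Igtp was highest at 269 CPM per kb, followed by Gbp2 at 117.5, Irgm1 at 51.3, Gbp4 at 28.6 and Gbp3 at 25.04. Gbp8 stood at 17.5, Gbp9 at 13.4, Gbp6 at 10.8, Gbp5 at 9.87 and Gbp7 at 7.94 CPM per kb. Igtp lay above Gbp2 and Gbp2 above Irgm1 within each of the 9 libraries. Lower in the order neighbours changed places: Irgm1 lay above Gbp4 in 7 of 9 libraries, Gbp4 above Gbp3 in 6, Gbp9 above Gbp6 in 4 and Gbp6 above Gbp5 in 5. The ranges over libraries overlapped for every pair of neighbours.

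**Figure D1:**
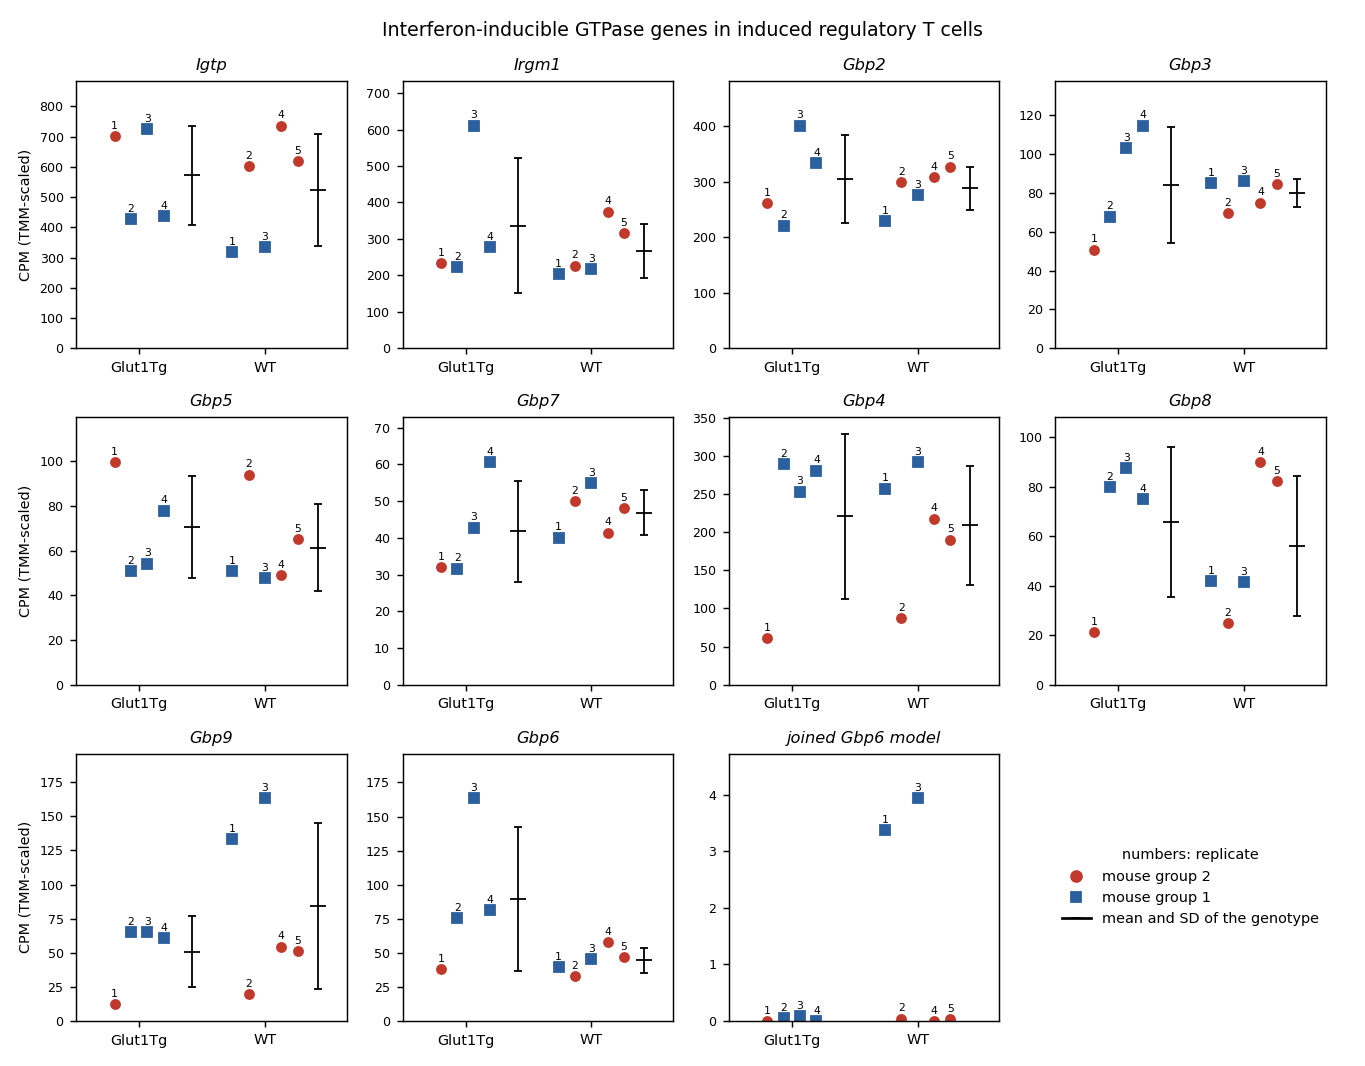
CPM of the 11 rows (vertical axes, from 0, scaled per gene) in each library, with Glut1Tg left of WT; circles are mouse group 2, squares mouse group 1, numbers the replicate, and bars the mean and SD of a genotype, left out for the joined Gbp6 model. Gbp9 stands highest in WT replicates 1 and 3, the 2 libraries that hold nearly all counts of the joined model, while Gbp4, Gbp8 and Gbp9 are lowest in Glut1Tg replicate 1 and WT replicate 2.

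Among the immunity-related GTPases, Igtp (also called Irgm3) encodes a regulatory member of the family found at the endoplasmic reticulum and on lipid droplets, which mice need to resist Toxoplasma gondii. It had 702.5, 426.4, 725.5 and 436.3 CPM in Glut1Tg replicates 1 to 4, against 319.2, 602.9, 335.0, 736.1 and 619.4 CPM in WT replicates 1 to 5. The genotypes overlapped. All 4 libraries of mouse group 2 stood at 602.9 CPM or more, as did Glut1Tg replicate 3 of mouse group 1, while the other 4 libraries of mouse group 1 stood at 436.3 CPM or less. The fitted log2 fold change was 0.48 (SE 0.22) for Glut1Tg over WT and 0.78 (SE 0.22) for mouse group 2 over mouse group 1. In mouse group 1 alone, Igtp was higher in all 3 Glut1Tg libraries than in both WT libraries (log2 fold change 0.69, SE 0.28). Of these 3, replicate 3, with the high myeloid, mast cell and platelet markers, had 725.5 CPM. Replicates 2 and 4 had 426.4 and 436.3 CPM, against 319.2 and 335.0 CPM in WT. The part of those other cells in the Igtp level of replicate 3 was not tested.

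Irgm1 encodes the regulatory GTPase that in mice protects host membranes and is required for resistance to mycobacteria. It had 233.1, 223.7, 610.8 and 277.3 CPM in Glut1Tg replicates 1 to 4, against 204.2, 226.9, 217.9, 375.1 and 316.1 CPM in WT replicates 1 to 5. Glut1Tg replicate 3 exceeded every other library, and the remaining 8 lay within 204.2 to 375.1 CPM. The fitted log2 fold change of Glut1Tg over WT was 0.38 (SE 0.39), and -0.03 (SE 0.21) without Glut1Tg replicate 3. That library is the one with the high myeloid, mast cell and platelet markers given above, and the part of those cells in its Irgm1 level was not tested. For mouse group 2 over mouse group 1 the fold change was 0.10 (SE 0.39), and 0.33 (SE 0.21) without that library.

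Of the chromosome 3 genes, Gbp2 encodes a prenylated protein that in mice coats Toxoplasma vacuoles and cytosolic bacteria. Gbp2 had 262.5, 221.4, 401.6 and 333.9 CPM in Glut1Tg replicates 1 to 4, against 228.9, 300.3, 275.9, 308.2 and 327.7 CPM in WT replicates 1 to 5. It varied least of all the genes here, with a log2 range of 0.86 from the lowest to the highest library. Its log2 fold change was 0.12 (SE 0.21) for Glut1Tg over WT and 0.09 (SE 0.21) for mouse group 2 over mouse group 1.

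Gbp7, linked in mice to the assembly of the NADPH oxidase on bacterial vacuoles, ranged between 31.6 and 60.7 CPM in Glut1Tg and between 40.0 and 54.9 CPM in WT. Gbp3, which in mice belongs with its neighbours to a block of genes needed to restrict Toxoplasma, had 50.8, 67.8, 103.0 and 114.6 CPM in Glut1Tg replicates 1 to 4, against 69.4 to 86.1 CPM in WT. The spread of Gbp3 was wider among Glut1Tg libraries (84.0 ± 29.8 CPM, SD, n = 4) than among WT libraries (79.9 ± 7.38 CPM, SD, n = 5). Fitted log2 fold changes of Glut1Tg over WT were -0.25 (SE 0.23) for Gbp7 and -0.12 (SE 0.22) for Gbp3, both within about 1 SE of 0.

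Gbp5, a prenylated protein of the Golgi that has been linked to assembly of the NLRP3 inflammasome, differed from its chromosome 3 neighbours in which libraries were high. It had 99.8, 50.7, 54.2 and 77.9 CPM in Glut1Tg replicates 1 to 4, against 51.0, 94.0, 47.8, 49.0 and 65.1 CPM in WT replicates 1 to 5. The highest were Glut1Tg replicate 1 and WT replicate 2, the libraries with the high proliferation genes. The log2 fold change for mouse group 2 over mouse group 1 was 0.58 (SE 0.22), and 0.22 (SE 0.25) without both of these libraries. For Glut1Tg over WT it was 0.39 (SE 0.22).

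The chromosome 5 genes varied more. From the lowest to the highest library the log2 range was 2.27 for Gbp4, 2.10 for Gbp8, 2.31 for Gbp6 and 3.76 for Gbp9, against 0.86 to 1.18 on chromosome 3 and 1.21 and 1.58 for Igtp and Irgm1. Glut1Tg replicate 1 and WT replicate 2 were the lowest 2 libraries in all 4 of these chromosome 5 genes and in none of the other 6, so in 4 of the 10 genes that passed the filter on low counts. The same 2 libraries were lowest in 19.7% of all genes tested. Averaged over the 4 genes, log2 CPM relative to the mean of all libraries was -1.43 in Glut1Tg replicate 1 and -1.11 in WT replicate 2, and 0.07 to 0.73 in the other 7 libraries. On chromosome 3 the same average ran between -0.35 and 0.38 over all 9 libraries. Glut1Tg replicate 1 and WT replicate 2 also had the lowest sums of erythroid and platelet markers, at 4.92 and 5.44 CPM. The other 7 libraries had 50.8 to 1036 CPM. Their mast cell and basophil sums, 93.3 and 128.2 CPM, were the lowest too, against 217.3 to 2462 CPM. Most of these 2 sums was the marker Kit, at 86.8 and 123.8 CPM, which ran between 79.6 and 145.6 CPM over all 9 libraries. Cpa3, the marker with the highest mean over all libraries, had 3.56 and 2.48 CPM in these 2, against 91.3 to 1670 CPM in the other 7. The part of the higher proliferation genes, or of the fewer transcripts of other blood cells, in the low chromosome 5 values was not tested.

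**Figure D2:**
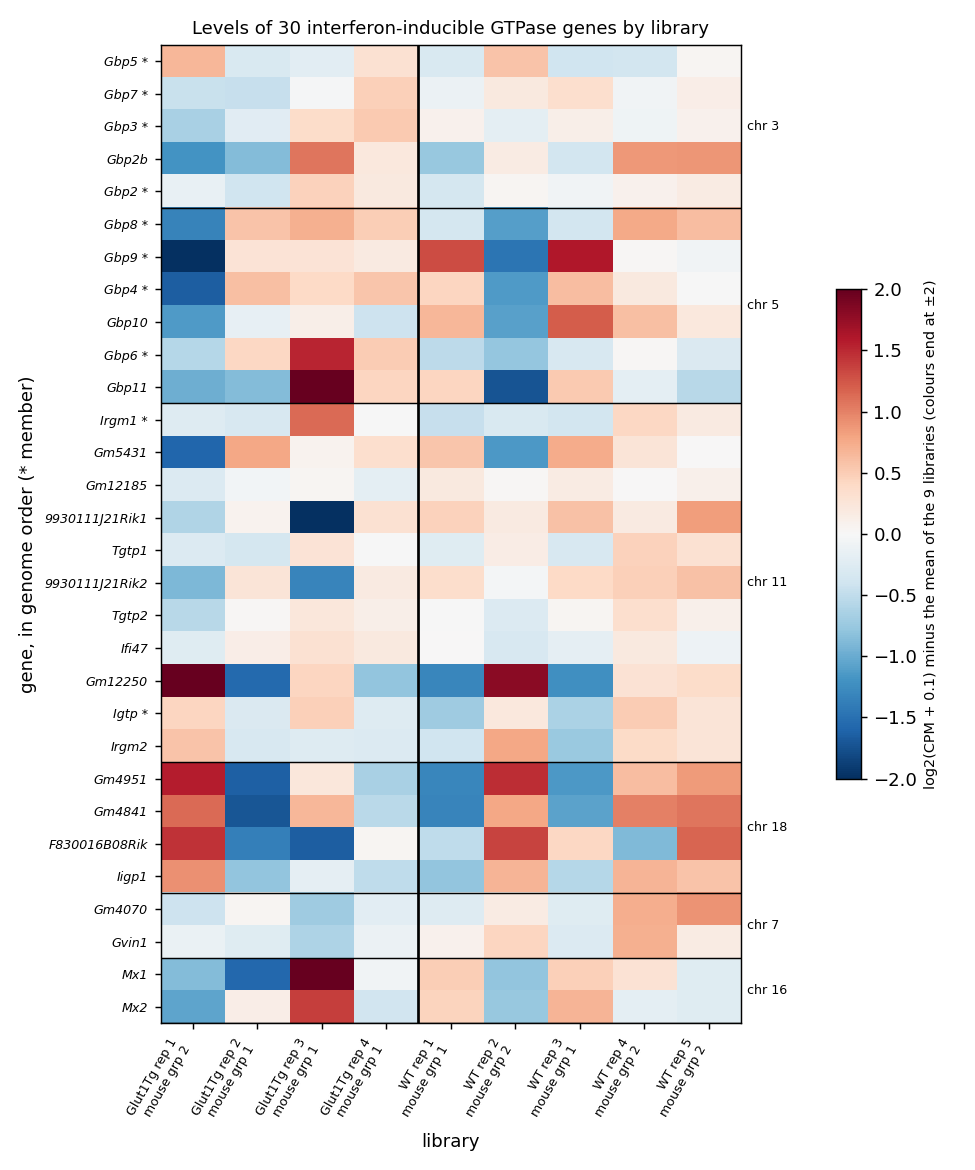
Level of 10 of the genes (starred) and 20 related GTPase genes in each library as log2(CPM + 0.1) minus the mean of the 9 libraries, with genes in genome order down the page and Glut1Tg libraries left of WT; red is above and blue below that mean, and colours end at 2 log2 units. Glut1Tg replicate 1 and WT replicate 2 are low across the chromosome 5 genes, and 4 genes of chromosome 18 are high in both. Of these, Iigp1, Gm4841 and Gm4951 are also high in WT replicates 4 and 5, the other libraries of mouse group 2.

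Gbp4, whose product has been reported in mice to restrain Irf7 and with it type I interferon, had 60.6, 289.8, 253.5 and 281.1 CPM in Glut1Tg replicates 1 to 4, against 257.3, 87.4, 292.6, 218.1 and 190.5 CPM in WT replicates 1 to 5. The mouse groups did not overlap: the 4 libraries of mouse group 2 lay between 60.6 and 218.1 CPM and the 5 of mouse group 1 between 253.5 and 292.6 CPM. The log2 fold change for mouse group 2 over mouse group 1 was -1.24 (SE 0.37). Without Glut1Tg replicate 1 and WT replicate 2 it was -0.41 (SE 0.16). Within mouse group 1 the genotypes were level for Gbp4, at 274.8 ± 19.0 CPM in Glut1Tg (SD, n = 3), against 257.3 and 292.6 CPM in WT.

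Gbp8 had 21.1, 79.7, 87.4 and 74.8 CPM in Glut1Tg replicates 1 to 4, against 41.9, 24.9, 41.5, 90.01 and 82.2 CPM in WT replicates 1 to 5. The values fell at separate levels, with 21.1 and 24.9 CPM in Glut1Tg replicate 1 and WT replicate 2, 41.5 and 41.9 CPM in WT replicates 3 and 1, and 74.8 to 90.01 CPM in the other 5 libraries. The fitted log2 fold change of Glut1Tg over WT was 0.11 (SE 0.62) over all libraries. In mouse group 1 alone it was 0.95 (SE 0.15), with all 3 Glut1Tg libraries above both WT libraries.

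Gbp6 had 38.1, 75.6, 163.5 and 81.0 CPM in Glut1Tg replicates 1 to 4, against 39.4, 33.03, 45.3, 57.8 and 46.6 CPM in WT replicates 1 to 5. In mouse group 1 its 3 Glut1Tg libraries lay above both WT libraries (log2 fold change 1.33, SE 0.38), and in mouse group 2 the single Glut1Tg library lay within the WT range of 33.03 to 57.8 CPM. Over all libraries the log2 fold change of Glut1Tg over WT was 0.77 (SE 0.41), and 0.42 (SE 0.28) without Glut1Tg replicate 3, which has the highest value and the high myeloid and mast cell markers.

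Gbp9 had 12.1, 65.2, 65.0 and 60.8 CPM in Glut1Tg replicates 1 to 4, against 133.4, 19.6, 163.4, 54.5 and 51.3 CPM in WT replicates 1 to 5. WT replicates 1 and 3 were the highest, and Glut1Tg replicate 1 and WT replicate 2 the lowest. Within mouse group 1 the Glut1Tg libraries averaged 63.7 ± 2.49 CPM (SD, n = 3), against 148 ± 21.2 CPM in WT (SD, n = 2). Within mouse group 2 the single Glut1Tg library had 12.1 CPM, below the 19.6 to 54.5 CPM of the 3 WT libraries. The fitted log2 fold change of Glut1Tg over WT was -1.43 (SE 0.31), it was -1.23 (SE 0.15) in mouse group 1 alone, and it was -0.73 (SE 0.63) where mouse group was left out of the model. For mouse group 2 over mouse group 1 it was -2.04 (SE 0.31), with no overlap between the groups, and -1.47 (SE 0.15) without Glut1Tg replicate 1 and WT replicate 2. WT replicates 1 and 3 were the highest 2 libraries in 1 of the 10 genes, Gbp9, and in 3.84% of all genes tested.

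The share of Gbp9 in all counts of the chromosome 5 genes (Gbp4, Gbp8, Gbp9, Gbp10, Gbp6 and the joined model) does not depend on how a library was scaled. In Glut1Tg replicates 1 to 4 it was 9.03% (exact 95% binomial interval 8.11% to 10.02%), 12.7%, 11.3% and 12.1%. In WT it was 27.6% (26.8% to 28.5%) in replicate 1 and 29.3% (28.5% to 30.1%) in replicate 3, against 11.7% (10.7% to 12.7%), 12.8% and 13.7% in replicates 2, 4 and 5. Both libraries with a high share are the WT libraries of mouse group 1, and the other 7 lay within 9.03% to 13.7%. The count table holds no read sequences, so whether the sequence of the cluster differs between libraries, which bears on how reads of such similar genes are assigned, was not tested. Gbp8 had its lowest shares in the same 2 WT libraries, 8.68% and 7.44%, against 14.9% to 15.7% in Glut1Tg and 14.9% to 21.9% in the other WT libraries. Gbp6 stood at 8.16% and 8.12% there, against 14.7% to 28.5% in Glut1Tg and 12.4% to 19.8% in the other WT libraries. A higher share of Gbp9 lowers the other shares of the same total. In CPM, WT replicates 1 and 3 lay within the range of the other WT libraries for both genes. Gbp8 had 41.9 and 41.5 CPM, against 24.9 CPM in WT replicate 2 and 90.01 and 82.2 CPM in WT replicates 4 and 5. Gbp6 had 39.4 and 45.3 CPM, against 33.03 CPM in WT replicate 2 and 57.8 and 46.6 CPM in WT replicates 4 and 5. These intervals cover counting error only, since reads without molecular identifiers are not independent molecules.

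The joined Gbp6 model had 0, 1, 2 and 0 counts in Glut1Tg replicates 1 to 4, against 73, 1, 97, 0 and 1 counts in WT replicates 1 to 5. WT replicates 1 and 3 thus held 170 of its counts and the other 7 libraries together 5. Within mouse group 1 the summed counts, 3 in Glut1Tg and 170 in WT, gave a ratio of WT to Glut1Tg of 91.8 after scaling (exact 95% interval 30.9 to 450, counting error only). The row failed the filter on low counts and entered no fit. Over all 28111 rows it was the single one with at least 20 counts in both WT replicates 1 and 3 and at least 10 times the level of every other library, and 0 rows showed the reverse; this rule was set after its values had been seen.

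The transcript of the joined model has 4310 bases in 11 exons. By position, 792 bases of its last exon lie in no other counted gene of that strand, but all 718 of the 75-base stretches within them also occur in transcripts of Gbp6. By sequence, 25 of its 75-base stretches occur in no other GTPase transcript examined, and they make up 99 bases across the junction of exons 10 and 11. From which of these bases the counts of the row came cannot be read from the count table. The 99 bases are shown because they are the part of the transcript with a sequence of its own, with the end of exon 10 in capitals and the start of exon 11 in lower case.
Joined Gbp6 model: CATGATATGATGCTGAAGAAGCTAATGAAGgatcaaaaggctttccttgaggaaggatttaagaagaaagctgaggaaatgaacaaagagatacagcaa

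On the minus strand of GRCm38 the capitals are chr5:105274187-105274216, in an exon that Gbp6 shares, and the lower-case bases are chr5:105217422-105217490, within the span of Gbp10. Gbp10 itself was low, with 2.08, 4.18, 5.07 and 3.48 CPM in Glut1Tg replicates 1 to 4, against 7.53, 2.15, 11.0, 7.17 and 5.42 CPM in WT replicates 1 to 5. WT replicates 3 and 1 were its highest libraries, but WT replicate 4 came close to replicate 1.

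The 6 nearest protein-coding genes outside the cluster were added after their values were seen. WT replicates 1 and 3 were the highest 2 libraries in 3 of them, beside the 3.84% of all genes tested given above. On one side these were BC005561, with 6.00 and 4.99 CPM in them and at most 4.38 CPM in the other 7 libraries, and the zinc finger gene Zfp951, with 15.1 and 16.6 CPM and at most 14.03 CPM elsewhere. On the other side it was Lrrc8b, which encodes a subunit of volume-regulated anion channels, with 66.3 and 53.9 CPM in them, against 16.8 to 51.3 CPM in the other 7. The transporter gene Abcg3, between Zfp951 and the cluster, had 5.54 and 4.18 CPM in them, within the range of the other 7 libraries, 2.99 to 8.23 CPM. Lrrc8c, at 310.8 and 292.3 CPM against 183.2 to 423.8 CPM, and Lrrc8d, at 99.5 and 83.1 CPM against 45.9 to 142.4 CPM, also lay within the range of the others. Gbp11, between the cluster and Lrrc8b, is annotated as a polymorphic pseudogene and so is not among the 6. It had 1.99 and 2.11 CPM in WT replicates 1 and 3, and its highest value was 11.8 CPM in Glut1Tg replicate 3.

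**Figure D3:**
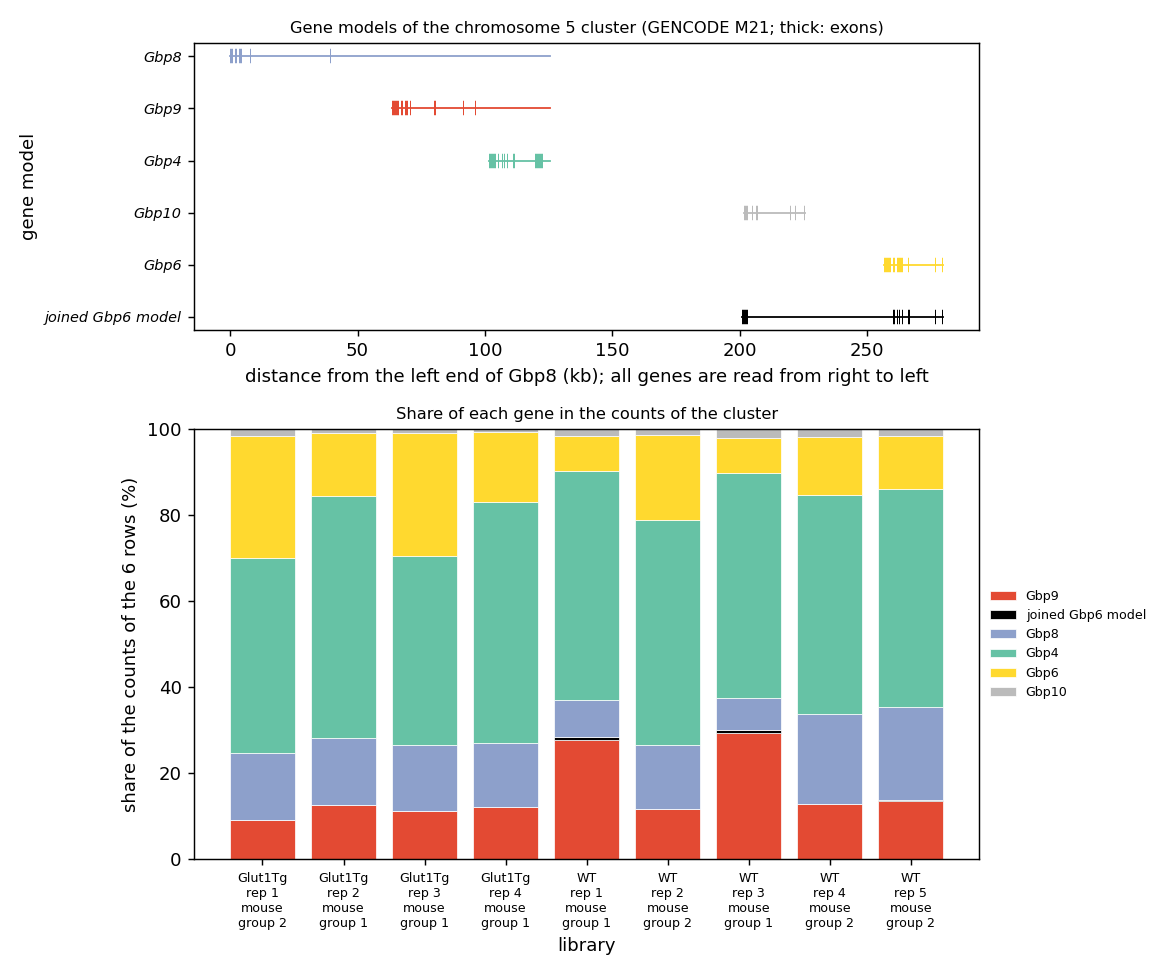
Top: gene models of the chromosome 5 cluster, with thick marks for exons, by distance in kb from the left end of Gbp8; the joined Gbp6 model spans Gbp6 and Gbp10. Bottom: share (%) of each row in the counts of the 6 rows by library, Glut1Tg left of WT; the Gbp9 share is 27.6% and 29.3% in WT replicates 1 and 3 and 9.03% to 13.7% in the other 7 libraries.

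Set side by side, 0 of the 10 genes that passed the filter had genotypes that did not overlap, where 1.59% of all 14817 genes tested had none. Fold changes of Glut1Tg over WT were positive in 6 of the 10 (median 0.12), where 52.4% of all genes were positive (median 0.02). By mouse group, 2 of the 10 genes did not overlap, Gbp4 and Gbp9, both lower in mouse group 2, beside 21.8% of all genes. Fold changes of mouse group 2 over mouse group 1 were positive in 4 of the 10 (median -0.19), beside 49.2% of all genes (median -0.01). Since the genes were chosen with these contrasts in view, nothing is read from these counts.

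**Figure D4:**
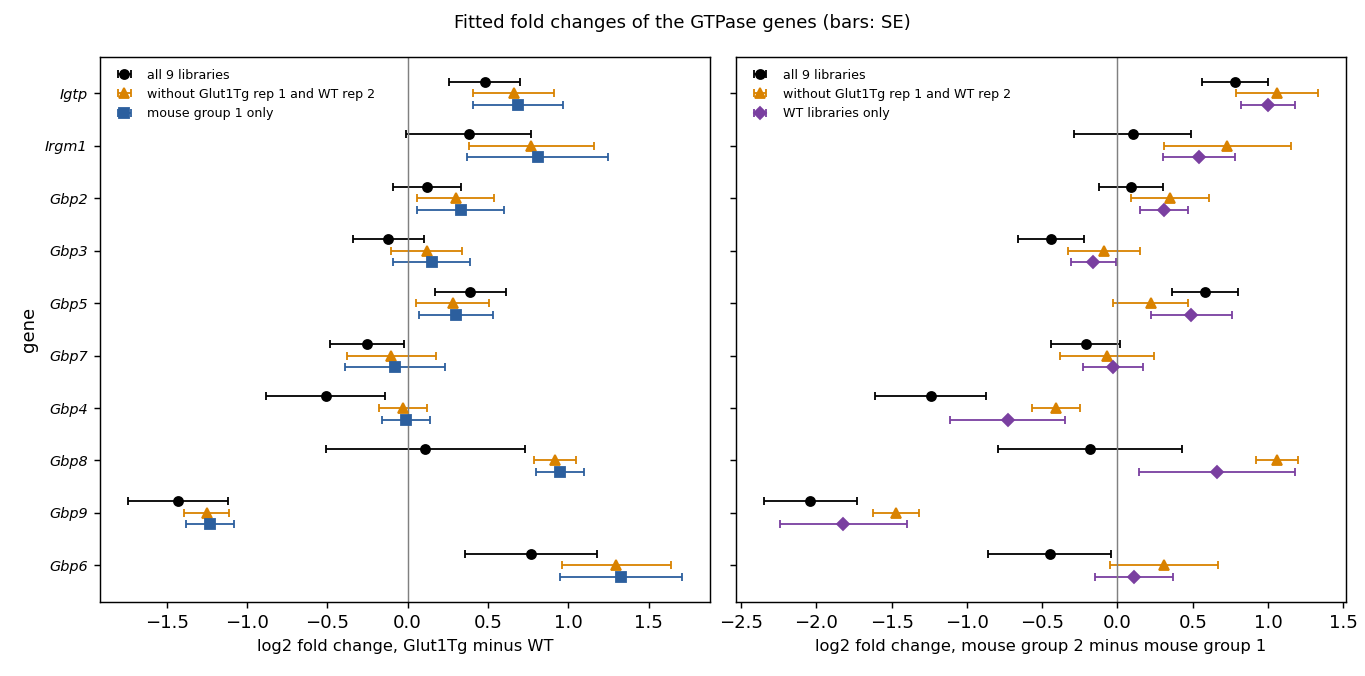
Fitted log2 fold change (horizontal axes) with SE for each of the 10 genes, Glut1Tg minus WT on the left and mouse group 2 minus mouse group 1 on the right, over all libraries and in subsets of them. Gbp9 lies below 0 on both sides in every set shown, from -1.43 to -1.23 for genotype, while Gbp8 and Gbp6 change with the libraries used.

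Whether genotype acts differently in the mouse groups was tested as an interaction, a contrast that rests on the single Glut1Tg library of mouse group 2. The interaction passed the edgeR test in 0 of 14817 genes (786 genes, 5.30%, at an unadjusted p under 0.05; DESeq2 called 2 genes, Aldh1l1 and Gm8730, neither of them a GTPase). For the 10 genes the estimates are a description, as above. The estimate was largest in size for Gbp8, at -2.59 on the log2 scale (SE 0.78). It was negative in 9 of the 10 genes, Gbp5 being the exception, and in 49.6% of all genes. Of the lists taken up below, 17 of 20 other GTPase genes, 13 of 13 type I interferon genes and 22 of 24 other interferon-gamma-inducible genes were negative. So were 11 of 15 interferon-gamma signalling genes, 14 of 21 partner genes and 5 of 10 Th1 genes. The myeloid markers and the mast cell and basophil markers were negative in 9 of 9 tested genes each.

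A list of 20 other interferon-inducible GTPase genes was examined, which also holds Mx1, Mx2, Gvin1 and Gm4070. Of the 20, 0 passed the genotype test, for which Slc2a1 was the single call in 14817 genes (0.00675%). By mouse group, 5 of the 20 rose and 0 fell in mouse group 2 (edgeR adjusted p under 0.05), where 13.1% of all genes rose and 11.0% fell. The median log2 fold change of the 20 was 0.06. Iigp1, an effector GTPase that in mice disrupts parasite vacuoles, stood at 219 ± 22.9 CPM in mouse group 2 (SD, n = 4), against 91.2 ± 16.6 CPM in mouse group 1 (SD, n = 5; log2 fold change 1.34, SE 0.14; edgeR adjusted p = 0.00149). Irgm2, the third regulatory member beside Irgm1 and Igtp, stood at 93.4 ± 14.9 CPM in mouse group 2, against 50.2 ± 6.48 CPM in mouse group 1 (log2 fold change 0.97, SE 0.15; edgeR adjusted p = 0.00404). Neither gene overlapped between the mouse groups. Gm4951 (2.21), Gm12250 (2.33) and Gm4841 (1.88) rose as well on the log2 scale. Without Glut1Tg replicate 1 and WT replicate 2, 2 of the 20 passed, Iigp1 and Irgm2, where 3.74% of all genes passed in either direction.

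In the interferon-gamma signalling list 3 of 15 genes rose and 4 fell in mouse group 2, where 13.1% of all genes rose and 11.0% fell. Among those that rose on the log2 scale were Irf8 (1.24), a transcription factor, and the cytokine gene Ifng (1.44). Ifng was low, at 5.597 CPM or less in every library. Those that fell on the log2 scale were the receptor chain Ifngr2 (-0.84), the kinase Jak2 (-0.74), the SUMO ligase Pias1 (-0.67) and the phosphatase Ptpn2 (-0.58). Irf1, a transcription factor that acts at these promoters, had 297.9, 651.4, 1075 and 755.6 CPM in Glut1Tg replicates 1 to 4, against 609.5, 286.5, 617.7, 884.9 and 840.7 CPM in WT replicates 1 to 5, and did not pass (log2 fold change -0.43; edgeR adjusted p = 0.515). Glut1Tg replicate 1 and WT replicate 2 were its lowest libraries, as they were for the chromosome 5 genes and for 19.7% of all genes tested. Irf1 was added after its values were seen. Without these 2 libraries Irf8, Ifng and the 4 genes that fell did not pass, with edgeR adjusted p between 0.0879 and 0.49.

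**Figure D5:**
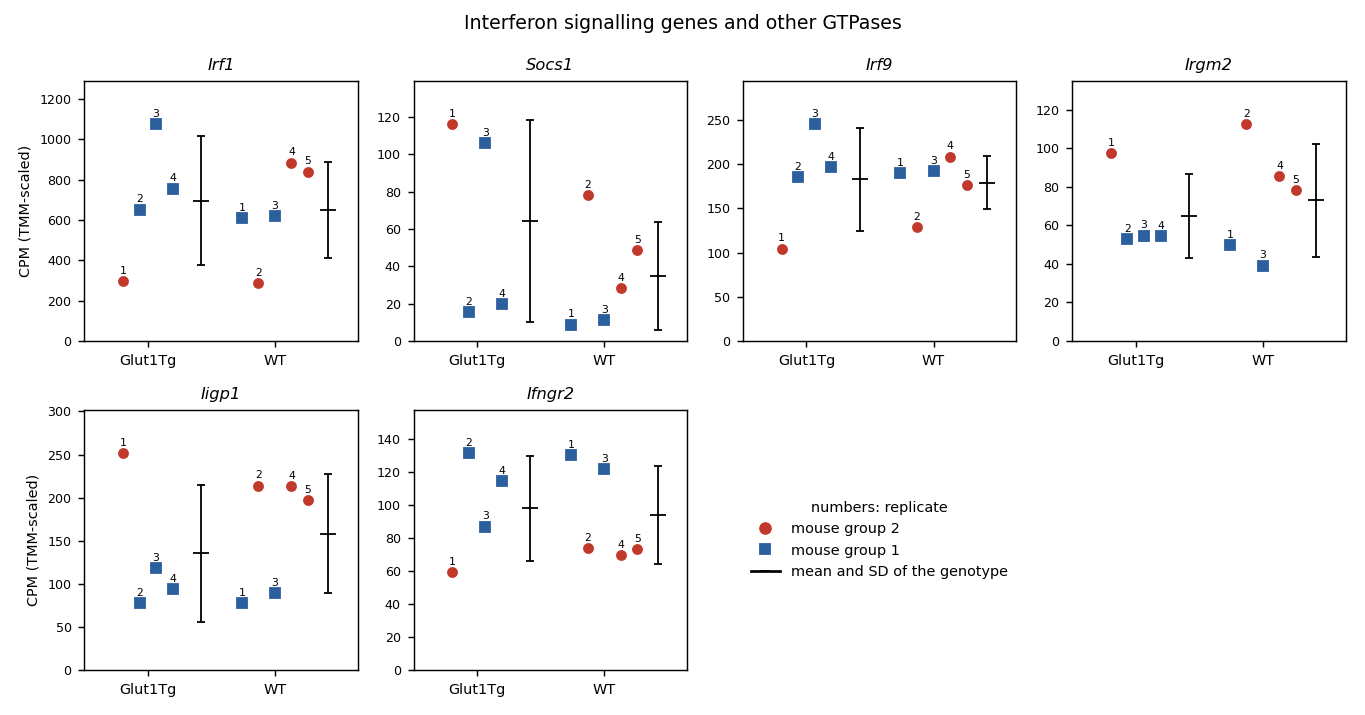
CPM (vertical axes, from 0) of interferon signalling genes and of the GTPase genes Irgm2 and Iigp1 in each library, drawn like the plot of the 11 rows, with Glut1Tg left of WT. Irgm2 and Iigp1 are higher in all 4 libraries of mouse group 2 than in all 5 of mouse group 1 and Ifngr2 is lower, while Irf1 and Irf9 are lowest in Glut1Tg replicate 1 and WT replicate 2.

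In the type I interferon list 0 of 13 genes passed by mouse group, beside 24.1% of all genes. The most abundant were Ifnar1 (156 ± 30.1 CPM in mouse group 2, 231 ± 59.0 CPM in mouse group 1), Irf9 (154.5 ± 46.8 and 202 ± 24.5 CPM) and Stat2 (104 ± 12.9 and 148 ± 51.3 CPM), each over 4 and 5 libraries. Of 24 measured interferon-gamma-inducible genes of other kinds, 3 rose and 1 fell in mouse group 2, where 13.1% of all genes rose and 11.0% fell. Psmb8 (0.88), an immunoproteasome subunit, Psme2 (0.69), its activator, and Wars (0.62), a tRNA synthetase, rose on the log2 scale. Cd274, which encodes the ligand PD-L1, fell by 1.35 (SE 0.23; edgeR adjusted p = 0.00553). Without Glut1Tg replicate 1 and WT replicate 2, 0 of these 24 genes passed in edgeR, beside 3.74% of all genes.

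Genes whose products work with these GTPases mostly fell where they passed. Of 21, 8 fell and 2 rose in mouse group 2, where 11.0% of all genes fell and 13.1% rose. The autophagy receptor Sqstm1 stood at 231 ± 71.7 CPM in mouse group 2, against 583 ± 72.4 CPM in mouse group 1 (SD, n = 4 and 5; log2 fold change -1.45, SE 0.22; edgeR adjusted p = 0.00387). The ubiquitin ligase Traf6, which in mice brings Gbp proteins to vacuoles, stood at 221 ± 59.8 CPM, against 561 ± 65.9 CPM in mouse group 1 (log2 fold change -1.27, SE 0.20; edgeR adjusted p = 0.0041). Map1lc3b (-1.25), Gabarapl1 (-0.96), Atg16l1 (-0.91), Atg7 (-0.51) and Atg3 (-0.42), all of the conjugation system that attaches LC3-like proteins to membranes, fell too, as did the DNA sensor Aim2 (-0.85). The 2 that rose act in the lipid modification of C termini, Fntb (0.64), a farnesyltransferase subunit, and Icmt (0.48), a methyltransferase. Without Glut1Tg replicate 1 and WT replicate 2, 3 of the 21 fell (Sqstm1, Traf6 and Gabarapl1) and 1 rose (Fntb). In that setting 3.74% of all genes passed in either direction.

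Of 10 Th1 genes, 3 rose in mouse group 2 and 0 fell, where 13.1% of all genes rose and 11.0% fell. Among the 3 was Tbx21, the factor that defines Th1 cells, at 6.71 ± 7.21 CPM in mouse group 2, against 1.36 ± 0.865 CPM in mouse group 1 (log2 fold change 2.53, SE 0.54; edgeR adjusted p = 0.012). Its highest libraries were Glut1Tg replicate 1 at 17.1 CPM and WT replicate 2 at 5.88 CPM, and without them 0 of the 10 passed in edgeR. The others were Il12rb1 (1.16) and Il18r1 (0.86). By genotype 0 genes passed in any of these lists, the lowest edgeR adjusted p being 0.681.

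The profile over the 9 libraries most like that of Gbp9, by the root-mean-square difference of log2 CPM after centring each gene, was that of Zscan18 (0.382 log2 units), followed by Fam83f (0.415), Zrsr1 (0.421), Apol7e (0.421) and Ccdc37 (0.422). The median over 11048 candidate genes was 1.19. Zrsr1 is one example, with 8.40, 57.4, 52.0 and 53.4 CPM in Glut1Tg replicates 1 to 4, against 59.6, 12.4, 58.1, 32.4 and 27.0 CPM in WT replicates 1 to 5. Like Gbp9 it was lowest in Glut1Tg replicate 1 and WT replicate 2, but WT replicates 1 and 3 lay close to the Glut1Tg libraries of mouse group 1. In Zscan18, the nearest, WT replicates 1 and 3 were the highest libraries, at 4.89 and 5.52 CPM, against at most 4.45 CPM in the others. The mean profile of the 10 genes was nearest to Plgrkt (0.082), Commd4 (0.10), Pstpip1 (0.114), Unc93b1 (0.116) and Irf9 (0.117), beside a median of 0.512. This mean joins unlike profiles. Between pairs of the 10 genes the difference ran from 0.237 (Gbp3 and Gbp7) to 1.467 (Gbp9 with Gbp5, and Gbp9 with Igtp). A gene near the mean is therefore not near each of the 10. Irf9, the DNA-binding subunit of the type I interferon complex, had 104, 185, 245 and 196 CPM in Glut1Tg replicates 1 to 4, against 190, 129, 192, 208 and 176 CPM in WT replicates 1 to 5.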

How the data were processed

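Gene counts of 9 RNA sequencing libraries were analysed. Stranded TruSeq mRNA libraries from RNeasy Plus extracts were sequenced as 75 bp paired-end reads, per the labels' protocols. The tools listed in the submitters' processing notes are bcl2fastq, TopHat2, featureCounts and DESeq2, with build mm10, and their versions and settings, strand included, are not stated there. The deposited raw table holds whole-number counts per gene, not normalized. The authors' deposited table of log2 values holds 13700 genes, not the joined Gbp6 model, and served for one alternative; its making is not stated.

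In R 4.3.3 with edgeR 4.0.16, filterByExpr by genotype kept 14817 genes, and was repeated in each subset of libraries. Libraries were scaled by TMM, and a quasi-likelihood model of mouse group and genotype gave log2 fold changes, SE (the absolute fold change divided by the root of the F statistic) and two-sided p-values, Benjamini-Hochberg adjusted over all genes tested, with a threshold of 0.05. Log2 CPM used a prior count of 2. Alternatives used DESeq2 1.42.0 and limma-voom 3.58.1. The code was tested on simulated data. No pair of libraries of a genotype agreed within sampling noise (lowest chi-square per degree of freedom 16.7 over 16 pairs). Depth was 20881035 to 31196428 counts per library.

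Members and gene lists were chosen with earlier results of these data known, from general knowledge of the pathways. Named were all members, each list's genes past the threshold (up to 8 a direction, otherwise the 3 with the highest mean CPM), and the 5 protein-coding genes of at least 1 CPM with named symbols nearest to Gbp9 and to the members' mean. The values of 1 gene that passed are not reported here. Irf1, Gbp10 and the neighbouring genes were added after their values were seen. Sequences came from RefSeq (GRCm38.p6) and from the GRCm38 genome with GENCODE M21; 6 of 10 symbols had a promoter.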

Additional observations from a re-analysis of the deposited data

Results flagged for a closer look

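Of 22 groups examined, Dixon's test at the 95% level marked 3 values, all in the group of 4 Glut1Tg libraries. Its rate of about 1 group in 20 by chance cannot be set beside this count. The genes were chosen with these values known, and the groups share the same libraries, so the marks are a description. Gbp9 stood at 12.1 CPM in Glut1Tg replicate 1, far from the 60.8 to 65.2 CPM of the others. Gbp4 stood at 60.6 CPM in the same library, against 253.5 to 289.8 CPM. Irgm1 stood at 610.8 CPM in Glut1Tg replicate 3, against 223.7 to 277.3 CPM. Glut1Tg replicate 1 is the single Glut1Tg library of mouse group 2, so for Gbp9 and Gbp4 that library and its mouse group cannot be told apart among Glut1Tg libraries.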

How the results depend on the processing

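Genotype called 1 gene with all libraries. The count was 7 in DESeq2, Gbp9 among them, which was chosen through this contrast. It was 2 without the low-count filter and 0 without Glut1Tg replicate 1 and WT replicate 2, in mouse group 1 alone, and with a replicate block; it ran between 1 and 2 with single libraries left out. Mouse group called 3576 genes, 561 without Glut1Tg replicate 1 and WT replicate 2, 790 in WT alone, and 651 (without Glut1Tg replicate 1) to 4575 with single libraries left out. In the interferon lists it called 29 genes, 7, 11 and 9 to 39 in these settings, against 0 by genotype in every setting run. The lists' count of 9 was without Glut1Tg replicate 1. Without single WT libraries 1, 2 and 3 mouse group called 1901, 2124 and 1958 genes, and the lists 19 without WT replicate 1. The interaction called 0 genes, and 2 in DESeq2. The causes were not tested, beyond fewer libraries in the subsets. Of 464 values of the 29 list genes over 16 settings, 360 stayed past the threshold, 104 did not and 0 changed sign. Iigp1, Irgm2, Sqstm1, Traf6 and Gabarapl1 were among those that passed in all 16.

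For genotype, fold changes kept their sign in 18 settings for Gbp9 (-1.61 to -0.73), Igtp (0.13 to 0.69), Gbp5 (0.20 to 0.46), Gbp6 (0.42 to 1.33) and Gbp7 (-0.45 to -0.08). They changed sign for Gbp4 (-0.81 to 0.08), Gbp8 (-0.38 to 0.95), Gbp3 (-0.26 to 0.15), Gbp2 (-0.06 to 0.33) and Irgm1 (-0.03 to 0.81). Replicate numbers did not pair libraries: deviations of same-numbered libraries correlated at -0.51, -0.59, 0.23 and -0.21, and numbers 1, 2 and 4 join different mouse groups. With the replicate block Gbp9 stood at -1.28.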
